A study of Homo sapiens with 8 samples.

Results

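The genes described here are the feedback inhibitors that the ERK pathway switches on against itself, together with the PEA3-type ETS factors that the same pathway induces. They are the phosphatase genes DUSP4, DUSP5 and DUSP6, the Sprouty genes SPRY2 and SPRY4, the SPRED genes SPRED1 and SPRED2, and the transcription factor genes ETV1, ETV4 and ETV5. The members were taken by gene symbol, with every probe set that names them: 10 genes of 18239 on the array, and 32 probe sets of 49386. All 10 genes had a probe set above the filter on low values, and 27 of the 32 probe sets passed it. The 5 set aside belong to ETV1 (3 of its 8) and SPRY4 (2 of its 3).

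The values come from 8 single-colour Affymetrix arrays of total RNA, in 4 groups of 2 arrays. The lines carry the names 231BrM and SKBrM3, given to variants of human breast cancer lines that colonise the brain. Both carry a short hairpin against the receptor tyrosine kinase MET that doxycycline switches on, and each was grown for 48 h without the drug (control) or with it (100 ng by the labels, with no volume given). No group received doxycycline without the hairpin, so the drug and the hairpin cannot be told apart in any doxycycline difference. The labels do not say whether the 2 arrays of a group come from separate cultures. A p-value here sets a difference against the scatter of such arrays within the 4 groups, and that scatter may be only technical.

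The ERK cascade carries signals from receptors such as MET through RAS, RAF and MEK kinases to ERK. ERK then induces genes that dampen it. DUSP4, DUSP5 and DUSP6 remove phosphates from MAP kinases, Sprouty and SPRED proteins act higher up between the receptor and RAF, and ETV1, ETV4 and ETV5 are transcription factors whose genes are derepressed when ERK signalling inactivates the repressor CIC. These transcripts are widely read as a gauge of ERK output. MDA-MB-231, the line to which the name 231BrM refers, is known to carry activating mutations in RAS and RAF genes, so its ERK pathway does not depend on receptors alone.

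All values are log2 values after RMA, a method that corrects background, equalises the distributions of the arrays and summarises the probes of a probe set. MET itself fell with doxycycline, by 13.5-fold in 231BrM (limma adjusted p = 2.83e-05) and by 11.3-fold in the arrays labelled SKBrM3 (limma adjusted p = 1.31e-05). One array stood apart, replicate 1 of the 231BrM doxycycline group: its actin controls read higher at the 3' than at the 5' end by 1.24 (log2), while the remaining arrays gave 0.46 to 0.59. Between it and its partner 68 genes differed by over 2-fold, against 0 or 1 in each other group, and results that rest on it are given with and without it. The markers of SK-BR-3, a luminal line with amplified ERBB2, were not those of the SKBrM3-labelled controls. There ERBB2 stood at 6.70 and 6.72 against 6.87 and 6.76 in the 231BrM controls, ESRP1 and TFAP2B did not pass the filter, and of 10 such markers tested 5, among them the keratin genes KRT7, KRT8, KRT18 and KRT19, were lower than in 231BrM, while FOXA1 alone was higher. VIM, a mesenchymal marker, lay between 12.7 and 12.9 on every array. Of 9 markers of MDA-MB-231 tested, VIM among them, 2 were higher in the 231BrM controls and 0 lower (limma adjusted p under 0.05). Over all genes the shares were 19.8% and 19.9%. Of 12 markers of fibroblasts, endothelium, leukocytes and astrocytes 5 passed the filter, and the mean of the list was 4.46 to 4.54 per array. CD68 was the brightest of them, at 8.17 to 8.37. The second line is therefore called by its label only, and in either line fewer cells with a transcript and less of it per cell cannot be told apart.

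The promoter windows of 3 members are shown with motifs of the pathway's own factors: that of ETV1, the member with the largest doxycycline difference in 231BrM, that of SPRY4, which differed between the lines in the opposite direction, and that of DUSP6, whose level differed little. Windows were used for 6 of the 10 members, since none was at hand for DUSP5, ETV4 and ETV5, and DUSP4 was left out. A window runs from 250 bases before to 50 bases after an annotated start (RefSeq, GRCh38.p14). Each is printed 5′ to 3′ on the gene's strand (the minus strand for all 3), with matches to the motifs below in capitals. For ETV1, which has 6 such windows, the most upstream is shown.
ETV1 (chr7:13991376-13991675): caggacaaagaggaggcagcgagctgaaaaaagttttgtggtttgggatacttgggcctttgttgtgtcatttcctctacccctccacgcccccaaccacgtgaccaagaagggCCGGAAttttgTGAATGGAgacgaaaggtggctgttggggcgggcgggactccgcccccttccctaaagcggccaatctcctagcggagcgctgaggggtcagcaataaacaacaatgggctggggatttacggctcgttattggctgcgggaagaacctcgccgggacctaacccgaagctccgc
SPRY4 (chr5:142324198-142324497): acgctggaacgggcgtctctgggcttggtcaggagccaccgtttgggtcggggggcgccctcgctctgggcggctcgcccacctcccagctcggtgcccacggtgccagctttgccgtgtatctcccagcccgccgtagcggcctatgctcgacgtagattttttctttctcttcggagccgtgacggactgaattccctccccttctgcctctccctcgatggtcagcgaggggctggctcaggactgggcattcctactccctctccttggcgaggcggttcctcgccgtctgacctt
DUSP6 (chr12:89352452-89352751): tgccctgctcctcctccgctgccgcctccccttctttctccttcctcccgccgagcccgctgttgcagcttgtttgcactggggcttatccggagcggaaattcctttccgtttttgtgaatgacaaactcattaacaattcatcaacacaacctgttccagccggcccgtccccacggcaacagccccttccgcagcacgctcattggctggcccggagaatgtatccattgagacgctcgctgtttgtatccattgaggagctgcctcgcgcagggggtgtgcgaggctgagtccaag

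The motifs searched on both strands were an ETS core (CCGGAA), a site of the repressor CIC (TGAATGNA), an AP-1 site (TGANTCA) and a cyclic AMP response element (TGACGNCA). Positions count the first transcribed base as 0. The ETV1 window holds the ETS core, its first base at -136 from the start, and the CIC site, its first base at -125, with no overlap between them. Among 35116 windows of the same length 17.2% hold the ETS core and 3.86% the CIC site. Neither the SPRY4 nor the DUSP6 window has a match to any of the 4 motifs, which says only that these letters are not in these windows. Other forms of these sites, that of CIC included, were not searched, so the windows are not shown to lack them. The CIC pattern used admits only G after its first T. The DUSP6 window reads tccattga more than once, which on the other strand departs from that pattern at this base alone. It was not searched as a form of the site, and no share of all windows was counted for it. The DUSP6 window therefore cannot be set against that of ETV1 as free of CIC sites. Of the other members' windows, 1 of SPRY2 holds an ETS core and a match to the cyclic AMP response element pattern, TGACGCCA. For SPRED2, 1 window holds 2 matches to the AP-1 pattern, TGACTCA and TGAATCA (7.71% of all windows hold a match). The N in these patterns admits any base, so a match need not be the usual form of the site. Another 2 ETV1 windows, which overlap each other, hold an ETS core. Which of these starts the cells use was not measured.

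**Figure D1:**
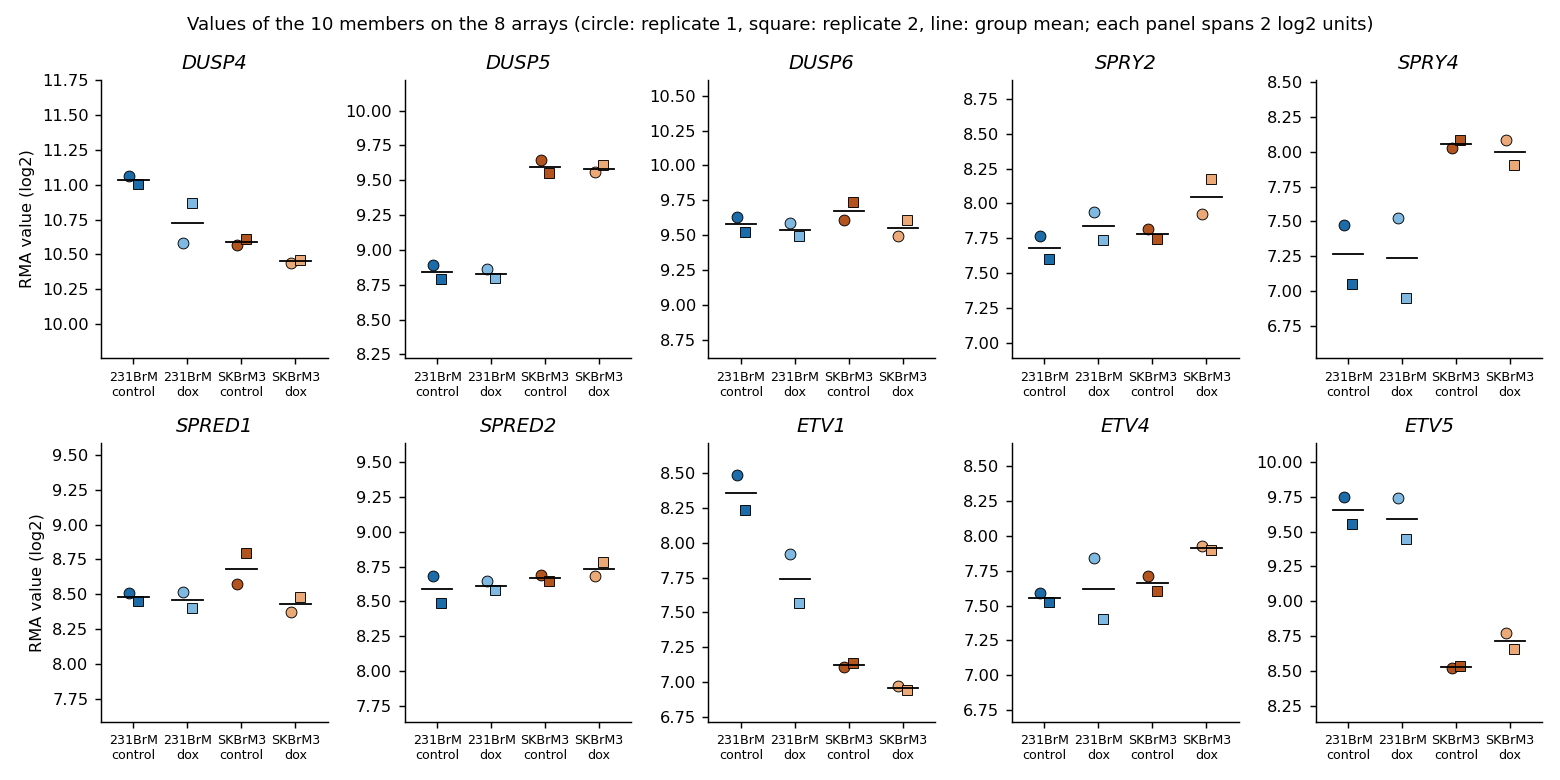
RMA values (log2, vertical axis) of the 10 members on the 8 arrays, 1 panel per gene and 1 column per group, with a line at each group mean; every panel spans 2 log2 units. ETV1 steps down from 8.49 and 8.23 in the 231BrM controls to 6.97 and 6.94 in the SKBrM3-labelled doxycycline arrays, whereas DUSP6 stays between 9.49 and 9.74.

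The first question was whether the gauge of ERK output moved when the MET hairpin was switched on. In neither line was any of the 10 members called by limma at an adjusted p under 0.05 (Benjamini-Hochberg over 13002 genes). In 231BrM 0.162% of all genes tested were called, and in the SKBrM3-labelled arrays 3.43%. At an unadjusted p under 0.05, 2 members were lower in 231BrM (DUSP4 and ETV1) and 0 higher, beside 3.74% of all genes lower and 6.15% higher. These 2 are also the members whose groups did not overlap there, as was so in the lower direction for 12.1% of all genes. For the arrays labelled SKBrM3, 1 member was higher (SPRY2) and 1 lower (SPRED1) at that level, beside 10.4% and 9.81% of all genes. Of the 27 member probe sets 0 were called in either line, beside 0.0658% and 1.44% of all probe sets. The median difference of the 10 members was -0.02 in 231BrM and -0.04 in the SKBrM3-labelled arrays, beside 0.05 and 0.01 over all genes tested. Without the array with raised 3' signal, ETV1 was called lower in 231BrM and ETV4 higher in the SKBrM3-labelled arrays, while the calls over all genes went from 21 to 80 and from 446 to 1631.

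**Figure D2:**
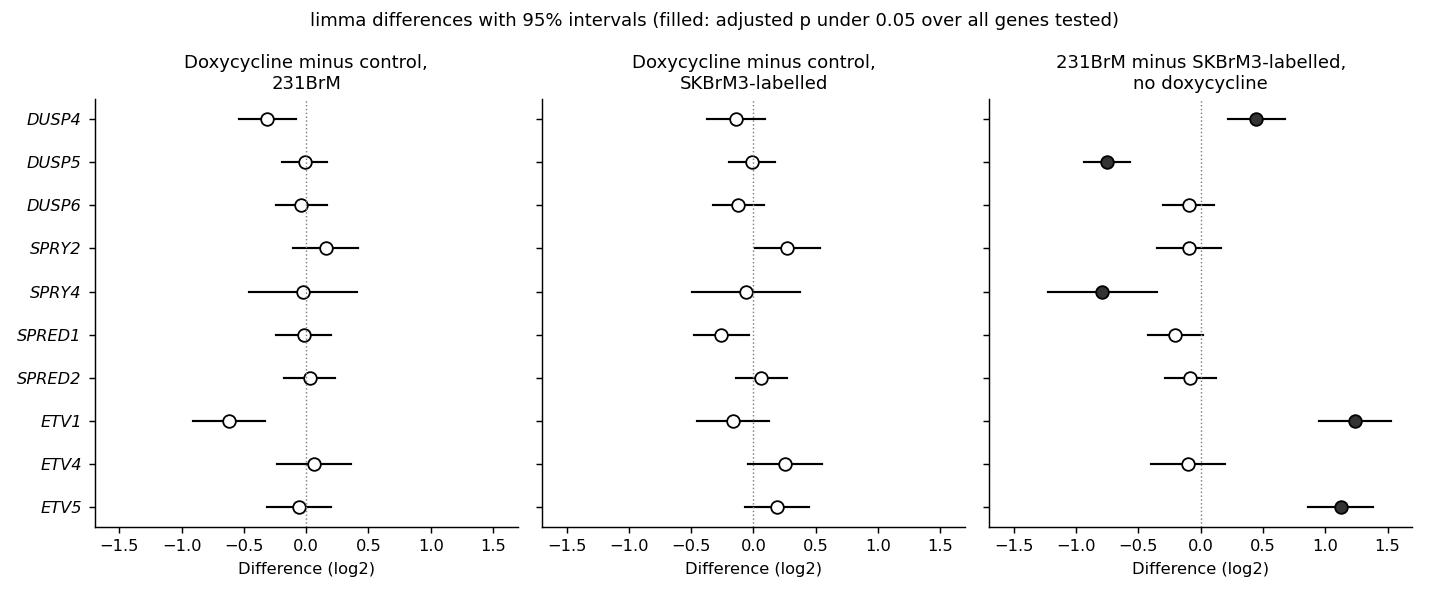
limma differences (log2, horizontal axis) of the 10 members with 95% intervals: doxycycline minus control in each line, and 231BrM minus SKBrM3-labelled without doxycycline. Filled points passed an adjusted p of 0.05 over all genes tested; 0 points are filled in the doxycycline panels and 5 in the comparison of the lines.

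DUSP4 encodes a nuclear phosphatase that acts on ERK and other MAP kinases. Its 1 probe set read 11.07 and 11.01 in the 231BrM controls and 10.58 and 10.87 with doxycycline. Both doxycycline arrays lie below both controls, and the lower of them is the array with raised 3' signal. The limma difference was -0.31 (standard error 0.10, 95% interval -0.54 to -0.08, adjusted p = 0.401), and it was -0.17 without that array (adjusted p = 0.517). Without the other doxycycline array it was -0.46 and passed (adjusted p = 0.0121), in a fit that rests on the array that stands apart and calls 1650 of all genes. With the SKBrM3 label DUSP4 read 10.57 and 10.61 in controls and 10.44 and 10.46 with doxycycline. The groups do not overlap there either, and the difference was -0.14 (95% interval -0.37 to 0.09, limma adjusted p = 0.48).

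DUSP5 encodes a nuclear phosphatase specific for ERK. It read 8.89 and 8.79 in the 231BrM controls and 8.87 and 8.80 with doxycycline. The SKBrM3-labelled arrays gave 9.65 and 9.55 in controls and 9.56 and 9.61 with doxycycline. The groups overlap in both lines. The differences were -0.01 in each, with 95% intervals from -0.20 to 0.17 in both lines, the narrowest among the members.

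DUSP6 encodes the cytoplasmic phosphatase specific for ERK and is the member most often used as a readout of the pathway. The probe set used read 9.63 and 9.52 in the 231BrM controls and 9.58 and 9.49 with doxycycline, and 9.61 and 9.74 against 9.49 and 9.61 in the SKBrM3-labelled arrays. The groups overlap in both lines. The differences were -0.04 (95% interval -0.24 to 0.17) and -0.12 (95% interval -0.33 to 0.08), with limma adjusted p-values of 0.893 and 0.483. Its 4 probe sets gave -0.12 to -0.02 in 231BrM and -0.12 to 0.07 in the SKBrM3-labelled arrays, the latter with 2 of 4 on each side of 0.

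SPRY2 encodes a Sprouty protein that restrains signalling from receptors to RAS. It read 7.77 and 7.60 in the 231BrM controls against 7.94 and 7.74 with doxycycline, where the groups overlap. With the SKBrM3 label both doxycycline values, 7.92 and 8.18, lie above both controls, 7.81 and 7.74. The differences were 0.16 (95% interval -0.10 to 0.42, limma adjusted p = 0.648) and 0.27 (95% interval 0.01 to 0.53, limma adjusted p = 0.229).

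SPRY4, another Sprouty gene, had the widest spread within 231BrM. Its probe set above the filter read 7.47 and 7.05 in the controls and 7.52 and 6.95 with doxycycline, and replicate 1 was the higher array in both groups. The difference was -0.03 with a 95% interval from -0.46 to 0.41, the widest among the members. The SKBrM3-labelled arrays read 8.02 and 8.08 in controls against 8.08 and 7.91 with doxycycline, a difference of -0.06 (95% interval -0.49 to 0.38).

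SPRED1 and SPRED2 encode relatives of the Sproutys that bring the RAS inhibitor neurofibromin to the membrane. For SPRED1 the SKBrM3-labelled arrays read 8.57 and 8.79 in controls and 8.38 and 8.48 with doxycycline, without overlap. The difference was -0.26 (standard error 0.10, 95% interval -0.48 to -0.04, limma adjusted p = 0.188). All 5 of its probe sets had negative differences there, from -0.30 to -0.18, and in 4 of them the groups did not overlap. Over genes, each read from 1 probe set, 27.2% did not overlap in the lower direction, and no such share was computed over probe sets. The 5 probe sets read the same RNA, so their number cannot be set against that share. In 231BrM SPRED1 read 8.51 and 8.45 in controls against 8.52 and 8.40 with doxycycline, a difference of -0.02 (95% interval -0.24 to 0.20). There 3 of its 5 probe sets had positive differences, and the range was -0.07 to 0.21. The difference between the 2 lines' doxycycline effects was 0.24 for the probe set used (limma adjusted p = 0.556), beside 0.0231% of all genes called for such a difference. It was 0.11 to 0.51 over all 5, none of which passed.

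SPRED2 read 8.68 and 8.49 in the 231BrM controls and 8.64 and 8.58 with doxycycline, and 8.69 and 8.65 against 8.68 and 8.78 in the SKBrM3-labelled arrays. The groups overlap in both lines, and the differences were 0.03 (95% interval -0.18 to 0.23) and 0.06 (95% interval -0.14 to 0.27). Its other probe sets above the filter gave 0.29 and -0.05 in 231BrM and -0.15 and -0.14 in the SKBrM3-labelled arrays, so the sign in the latter depends on the probe set.

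ETV1 encodes a PEA3-type activator best known as a driver in other tumours, and is read here from 2 bright probe sets. In 231BrM the probe set used read 8.49 and 8.23 in the controls and 7.92 and 7.57 with doxycycline, with no overlap, and the lower doxycycline array was not the one with raised 3' signal. The difference was -0.62 (standard error 0.13, 95% interval -0.91 to -0.33), a 1.54-fold lower level, with an unadjusted p of 0.001 and a limma adjusted p of 0.179. Without the array with raised 3' signal it was -0.80 (limma adjusted p = 0.0214), and without the other doxycycline array -0.44 (limma adjusted p = 0.0351). Each of these fits leaves 1 doxycycline array and takes its spread from the other groups. Under the SKBrM3 label the same probe set read 7.11 and 7.14 in controls and 6.97 and 6.94 with doxycycline, again with no overlap. The difference there was -0.17 (95% interval -0.46 to 0.12, limma adjusted p = 0.506).

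Of the 5 ETV1 probe sets above the filter, 3 are dim: they passed through the 231BrM controls, where they are highest, and lie under the filter level on every SKBrM3-labelled array. Their doxycycline differences, -0.58 to -0.36 in 231BrM and -0.46 to -0.12 in the SKBrM3-labelled arrays, are therefore given as values only. The second brightest, 11733180_a_at, read 6.83 and 6.57 against 6.62 and 5.98 in 231BrM, where the groups overlap, and 5.57 and 5.69 against 5.12 and 5.25 in the SKBrM3-labelled arrays, where they do not. Its differences, -0.40 and -0.45, were of about the same size, whereas those of the brightest, 11745799_s_at, were -0.62 and -0.17. The size of the ETV1 difference in the SKBrM3-labelled arrays thus depends on the probe set. Probe sets of 1 gene read the same RNA and are not replicates.

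Averaged over both lines, ETV1 had a difference of -0.39 (standard error 0.09, 95% interval -0.60 to -0.19, limma adjusted p = 0.0569), where 3.04% of all genes were called in either direction. At an unadjusted p under 0.05 ETV1 and DUSP4 (-0.23) were lower on average and SPRY2 (0.21) higher, beside 7.28% and 11.7% of all genes. In the fit over all 28860 probe sets that passed, 1 of the 27 member probe sets was called for the average, the ETV1 probe set 11733183_x_at (-0.52, standard error 0.06, limma adjusted p = 0.0131), beside 1.50% of all probe sets. It is 1 of the 3 dim ones, between 3.79 and 4.87 on all arrays against a filter level of 4.41, and of a type that can also bind other transcripts, so the call adds no support. The adjusted p of the ETV1 average ran from 0.00598 to 0.215 over the alternatives run. It passed without either 231BrM doxycycline array, at -0.48 and -0.30. It also passed with array weights (limma adjusted p = 0.0428) and with the mean of all its probe sets, dim ones included (-0.32, limma adjusted p = 0.0248). The difference between the lines' doxycycline effects on ETV1 was -0.45 in the probe set used (95% interval -0.86 to -0.04, limma unadjusted p = 0.0344, adjusted p = 0.406), a level that 4.31% of all genes passed in the lower direction. In the second brightest probe set it was 0.05 and did not pass.

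ETV4, a close relative of ETV1, had positive differences in the SKBrM3-labelled arrays. With the SKBrM3 label it read 7.71 and 7.61 in controls and 7.93 and 7.90 with doxycycline, both above both controls. The difference was 0.26 (95% interval -0.04 to 0.55, limma adjusted p = 0.314), and it passed without either 231BrM doxycycline array, which changes the shared spread and not this value (limma adjusted p = 0.0479). The other ETV4 probe set gave 0.37 there (95% interval 0.15 to 0.58, limma adjusted p = 0.114 over all probe sets). In 231BrM ETV4 read 7.59 and 7.52 in controls and 7.84 and 7.40 with doxycycline. The doxycycline arrays lie on both sides of the controls, the higher being the array with raised 3' signal, and the difference was 0.06 with all arrays and -0.16 without that array.

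ETV5 read 9.75 and 9.56 in the 231BrM controls and 9.74 and 9.45 with doxycycline, which overlap (-0.06, 95% interval -0.32 to 0.20). The SKBrM3-labelled arrays of ETV5, the other close relative, read 8.52 and 8.53 in controls and 8.77 and 8.66 with doxycycline, without overlap (0.19, 95% interval -0.07 to 0.45, limma adjusted p = 0.392). Its other 3 probe sets gave 0.03, 0.27 and -0.15 in these arrays, so the sign was not shared by all. With this label, then, the groups did not overlap for 3 members with lower values under doxycycline (DUSP4, SPRED1 and ETV1) and for 3 with higher values (SPRY2, ETV4 and ETV5). Over all genes, the groups of this comparison did not overlap for 27.2% lower and 32.3% higher.

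**Figure D3:**
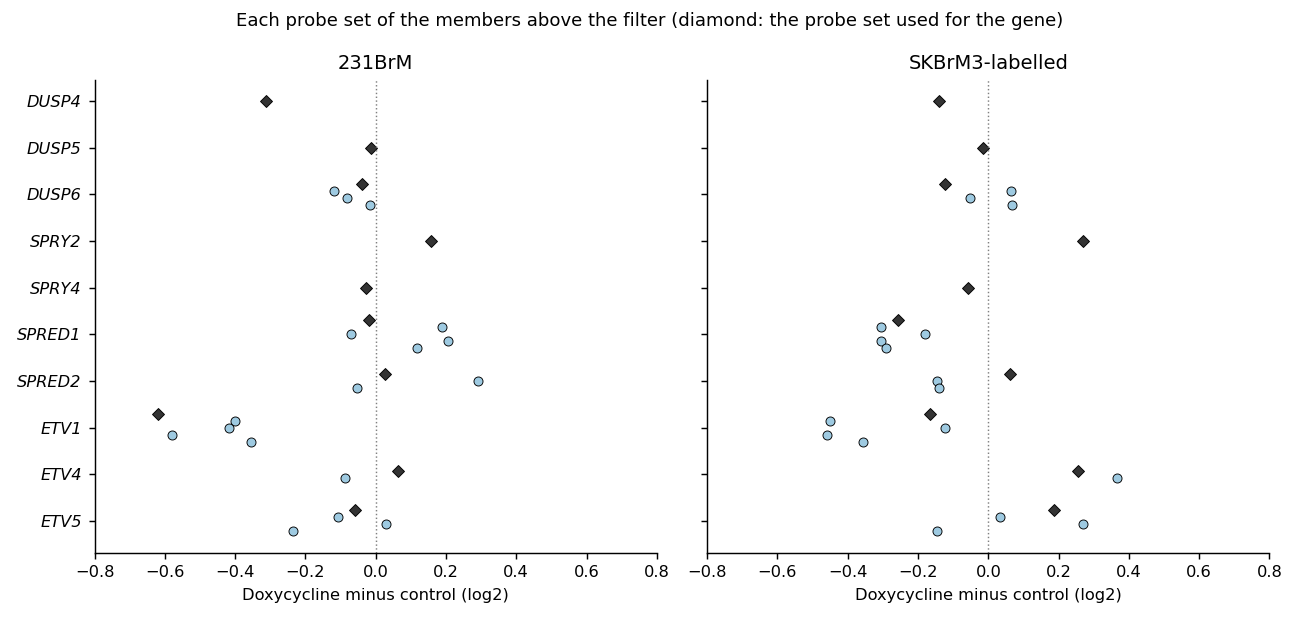
Doxycycline minus control (log2, horizontal axis) for each of the 27 member probe sets above the filter, by gene, in 231BrM and in the SKBrM3-labelled arrays; diamonds mark the probe set used for the gene. The 2 bright ETV1 probe sets lie left of 0 in both lines; the other 3 ETV1 points are dim probe sets that passed through the 231BrM controls. All 5 SPRED1 points lie left of 0 in the SKBrM3-labelled arrays, and both ETV4 points lie right of 0 in the SKBrM3-labelled arrays.

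The second question was whether the lines differed in these genes before the hairpin was switched on. By limma 5 of the 10 members differed: ETV1, ETV5 and DUSP4 were higher in 231BrM, and DUSP5 and SPRY4 higher in the SKBrM3-labelled controls. The lines differed widely, with 39.7% of all genes called in this comparison, and a count of 5 in 10 is near that background. The groups did not overlap for 3 members that were higher in 231BrM and 4 that were lower, beside 33.2% and 43.6% of all genes. The directions split among the ETV factors and among the phosphatases, since ETV1 and ETV5 were higher in 231BrM and ETV4 was not, and DUSP4 and DUSP5 went opposite ways.

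ETV1 was 2.36-fold higher in the 231BrM controls, 8.36 ± 0.18 against 7.12 ± 0.02 (mean log2 ± SD of n = 2 arrays each), a difference of 1.24 (95% interval 0.95 to 1.53, limma adjusted p = 1.23e-04). Its second brightest probe set was called higher too, by 1.07. The 3 dim ones had differences of 0.43 to 0.64, but they passed the filter through the 231BrM controls and are under its level in the SKBrM3-labelled controls. ETV5 was 2.18-fold higher, 9.65 ± 0.14 against 8.53 ± 0.01 (n = 2 per group), a difference of 1.12 (95% interval 0.86 to 1.38, limma adjusted p = 1.13e-04). All 4 of its probe sets were called higher, by 0.65 to 1.25. For ETV4 the difference was -0.10 (95% interval -0.40 to 0.20, limma adjusted p = 0.57), and its other probe set gave -0.18. Over probe sets, 10 of 27 were called higher and 2 lower, beside 17.1% and 16.3% of all probe sets. The 10 include the 3 dim ETV1 probe sets, and 7 were called higher with the filter at the 50th percentile, beside 4746 of all 24168 probe sets tested there.

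Among the phosphatases, DUSP5 was 1.69-fold higher in the SKBrM3-labelled controls, 9.60 ± 0.07 against 8.84 ± 0.07 (n = 2 per group), with a difference (231BrM minus SKBrM3-labelled) of -0.76 (95% interval -0.94 to -0.57, limma adjusted p = 1.50e-04). DUSP4 went the other way and was 1.36-fold higher in 231BrM, 11.04 ± 0.04 against 10.59 ± 0.03 (n = 2 per group; difference 0.45, 95% interval 0.22 to 0.68, limma adjusted p = 0.0077). That call was lost without 231BrM control replicate 1 (0.42, limma adjusted p = 0.0584) or SKBrM3-labelled control replicate 1 (0.43, limma adjusted p = 0.0521). DUSP6 differed by -0.10 (95% interval -0.30 to 0.11), with 2 of its 4 probe sets on each side of 0.

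SPRY4 was 1.73-fold higher in the SKBrM3-labelled controls, 8.05 ± 0.04 against 7.26 ± 0.30 (n = 2 per group; difference -0.79, 95% interval -1.23 to -0.35, limma adjusted p = 0.0106). The call was lost without 231BrM control replicate 2 (-0.58, limma adjusted p = 0.0875) or without either SKBrM3-labelled control (limma adjusted p = 0.0511 and 0.0675). SPRY2, SPRED1 and SPRED2 did not pass, with differences of -0.09, -0.21 and -0.08. For SPRED1 the controls of the lines did not overlap, 8.51 and 8.45 against 8.57 and 8.79.

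Over all 4 groups both means of 1 line lay above both of the other for each member except DUSP6, SPRY2 and SPRED1. For DUSP5, SPRY4, ETV5 and ETV1 the single arrays of the lines did not overlap either. DUSP5 ran from SKBrM3-labelled control (9.60) and doxycycline (9.58), which overlap, to 231BrM control (8.84) and doxycycline (8.83), which overlap too. SPRY4 had the same order, from 8.05 in the SKBrM3-labelled controls to 7.24 in the 231BrM doxycycline arrays, and ETV5 the reverse, with 9.65 and 9.59 in 231BrM against 8.72 with doxycycline and 8.53 without in the SKBrM3-labelled arrays. ETV1 took 4 levels in which no neighbours overlap: 8.36, 7.74, 7.12 and 6.96 for 231BrM control, 231BrM doxycycline, SKBrM3-labelled control and SKBrM3-labelled doxycycline. DUSP4 had the same order of groups (11.04, 10.73, 10.59 and 10.45), with overlap between 231BrM doxycycline and SKBrM3-labelled control. SPRED2 (8.73, 8.67, 8.61 and 8.59) and ETV4 (7.91, 7.66, 7.62 and 7.56) ran from SKBrM3-labelled doxycycline and control to 231BrM doxycycline and control. For every member but ETV1 at least 1 pair of neighbours in its order overlaps, and the 4 means of DUSP6 lie within 9.54 to 9.67. All these orders come from the probe set used for each gene. In the second brightest ETV1 probe set the 231BrM groups overlap.

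For the 5 members called between the lines, the genes with the most similar pattern over the 8 arrays were found by Pearson correlation among the other 13001 genes tested. They were SNX16 (r = 0.989) and PTGS2 (0.983) for ETV1, TFAP2A (0.998) and RAB11B (0.997) for ETV5, RBM12B (0.996) and PSMB1 (0.988) for DUSP4, FGF13 and TAF7 (0.998 each) for DUSP5, and OSMR and PSMC4 (0.984 each) for SPRY4. The points share their line, 4 arrays of each, so these values describe the arrays and no test was made. PTGS2, which encodes the prostaglandin synthase COX-2, read 6.20 and 5.76 in the 231BrM controls and 5.50 and 5.12 with doxycycline. Its SKBrM3-labelled values, 3.79 and 3.91 against 3.48 and 3.46, are under the filter level.

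The rest of the pathway was followed in 6 lists. In 231BrM limma called 0 genes in all 6, and 8 of 75 at an unadjusted p under 0.05, beside 9.89% of all genes. Of these 8, 4 were among the 15 other ERK output genes tested, all lower, beside 3.74% of all genes lower. With the SKBrM3 label limma called 5, all lower, where 2.28% of all genes were called lower. Of the 15 other ERK output genes, 4 were called there: EGR1 fell by 0.78 log2 units, HBEGF by 0.73, KLF10 by 0.65 and IER3 by 0.55. Leaving out 1 array of the line lowered this count, to 0 without doxycycline replicate 1, 1 (HBEGF) without either control and 3 without doxycycline replicate 2. EGR1 and KLF10 are early induced transcription factors, HBEGF is a ligand of the EGF receptor and IER3 an early response gene. Of 13 other feedback inhibitors 1 fell, ERRFI1, which encodes the EGF receptor inhibitor MIG6, by 0.68. Its call was lost without control replicate 2 (-0.58, limma adjusted p = 0.0940) or doxycycline replicate 1 (-0.61, limma adjusted p = 0.116). FOSL1, an AP-1 subunit singled out after its values were seen, went the other way: it read 9.27 and 9.34 in controls and 10.11 and 9.83 with doxycycline (0.66, limma adjusted p = 0.0556). It was called higher with array weights, a trended and robust variance, the replicate block or the line's arrays alone.

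ERRFI1 read 10.06 and 10.26 in the SKBrM3-labelled controls and 9.42 and 9.55 with doxycycline (standard error 0.10, limma adjusted p = 0.0090). In 231BrM it read 10.38 and 10.26 against 10.01 and 9.98, with no overlap (-0.33, limma adjusted p = 0.374). KLF10 read 8.70 and 8.54 against 7.87 and 8.06 in the SKBrM3-labelled arrays (limma adjusted p = 0.0134). Its other probe set gave -0.68 there. Those of EGR1 gave -0.82, -0.64, -0.13 and -0.09, and the other of HBEGF -0.82. In 231BrM the probe sets used had differences of -0.51 for HBEGF, -0.37 for KLF10, -0.25 for IER3 and 0.03 for EGR1, none of which passed under the settings used throughout. The other EGR1 probe sets gave -0.41, -0.23, -0.13 and -0.13 there, and the other of HBEGF -0.81. HBEGF passed in 231BrM without the array with raised 3' signal (-0.57, limma adjusted p = 0.0262) or its partner (-0.45, limma adjusted p = 0.0147), with a trended and robust variance (limma adjusted p = 0.00929) and with the mean of its probe sets (-0.66, limma adjusted p = 0.0187). No test set these genes against the 10 members, and the falls are given beside the members' values only.

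The medians of the ERK output list were -0.07 in 231BrM and -0.15 in the SKBrM3-labelled arrays, next to -0.02 and -0.04 for the members. In the SKBrM3-labelled arrays 7 genes of this list were lower and 1 higher at a limma unadjusted p under 0.05. Over all genes the shares were 9.81% and 10.4%. The 13 other feedback inhibitors held 3 lower and 1 higher there, and 1 lower and 0 higher in 231BrM. With array weights, when 1605 genes in all were called, 6 of the 15 ERK output genes were called lower and 1 higher in the SKBrM3-labelled arrays. Of 13 feedback inhibitors 2 were called lower there (ERRFI1 and SPRY1) and 1 higher (RASA2). RASA2 exceeded the filter level only on the doxycycline arrays of this line (4.49 and 4.47). It was thus tested through the group in which it is higher, and its call adds no support. Other MAPK phosphatases (12 tested), ERK cascade components (14), other ETS factors (17) and regulators of ETV proteins (4) held 0 called genes in either line under the settings used throughout. With array weights they held 1, 3, 2 and 1 in the SKBrM3-labelled arrays. By limma at an unadjusted p under 0.05 these 4 lists held 0, 0, 2 and 1 genes in 231BrM and 2, 3, 4 and 1 in the SKBrM3-labelled arrays, in either direction, beside 9.89% and 20.2% of all genes.

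**Figure D4:**
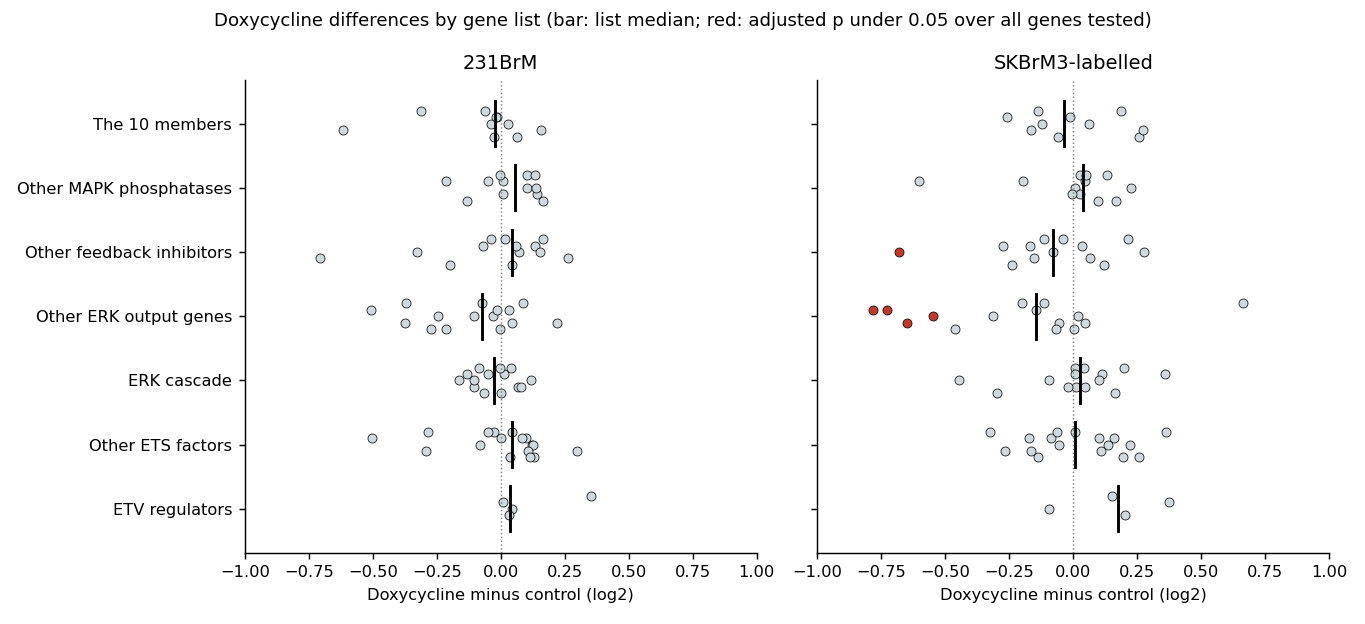
Doxycycline minus control (log2, horizontal axis) for each tested gene of the 10 members and the 6 pathway lists, in 231BrM and in the SKBrM3-labelled arrays; bars mark list medians and red points an adjusted p under 0.05 over all genes tested. There are 5 red points, all in the SKBrM3-labelled panel: EGR1, HBEGF, KLF10, IER3 and ERRFI1.

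Between the untreated lines the same lists differed more. Of other ERK output genes, 8 of 15 were higher in 231BrM and 1 lower, among them EPHA4 (0.81, with a SKBrM3-labelled mean of 4.27, under the filter level), CCND1, which encodes cyclin D1 (0.72), and FOSL1 (0.60). SPHK1 was the lower one, at -0.25. Of 12 other MAPK phosphatases 4 were higher, led by DUSP1 (1.61), DUSP10 (0.87) and DUSP3 (0.64), and 3 lower, PTPRR (-0.71), DUSP2 (-0.56) and PPP2R1A (-0.47). Of 13 other feedback inhibitors 1 was higher, the ubiquitin ligase CBL (0.90), and 2 lower, RASA2 (-0.36) and SPRY3 (-0.33). RASA2 is under the filter level on all 4 control arrays and SPRY3 on both 231BrM controls, as is the 231BrM control mean of DUSP2, so low signal limits these sizes. Of the ERK cascade, 5 of 14 were higher, led by SHC1 (1.08), HRAS (0.56) and MAP2K2 (0.45), and 1 lower, RPS6KA3 (-1.22).

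Among 17 other ETS factors 6 were higher in 231BrM and 0 lower. EHF, an epithelial ETS factor, differed by 5.08 and its SKBrM3-labelled control mean of 3.93 is under the filter level, so that the size is limited by low signal. SPDEF (0.83) and ELF2 (0.59) followed. Of 4 regulators of ETV proteins tested, COP1, a ubiquitin ligase that degrades ETV proteins (0.59), and CIC, the repressor of ETV genes (0.52), were higher in 231BrM, and ATXN1L, a partner of CIC, was lower (-0.49). The background stands at 19.8% of genes higher and 19.9% lower.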

How the data were processed

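The deposited table holds log2 expression of 1 probe set per value, which the authors computed with RMA per the submitters' processing notes; no source used here states the version, chip definition or build. Since RMA gives all arrays the same distribution, it removes any shift shared by all genes. Symbols came from the array annotation, updated by gene ID through RefSeq (GRCh38.p14): of 49386 probe sets 45253 name 1 gene, 1327 several and 2713 none. Each gene was read from its brightest probe set by mean, and tested where 2 arrays or more exceeded 4.41, the 40th percentile of all values (13002 of 18239 genes). Group means were fitted with limma 3.58.1 (R 4.3.3; lmFit, eBayes, two-sided, 4 residual and 4.60 prior degrees of freedom), with Benjamini-Hochberg adjustment over all genes tested, and separately over 28860 probe sets. The median standard error of a doxycycline difference was 0.0968, and the number of arrays limits precision. The code was tested on simulated data. Named genes are the members, MET, list genes called with doxycycline, up to 3 per direction and list called between the controls, and the 2 genes most similar to each called member; PTGS2 values and the FOSL1 doxycycline values were picked after they were seen. Members, lists and alternatives were chosen with earlier results of these data known.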

Additional observations from a re-analysis of the deposited data

Results flagged for a closer look

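The SPRED2 probe set 11717655_a_at, 1 of 3, had doxycycline differences of opposite sign in the lines. In 231BrM it read 5.82 and 5.84 in controls and 6.26 and 5.99 with doxycycline, both above both controls. In the SKBrM3-labelled arrays it read 5.97 and 6.06 in controls and 5.81 and 5.93 with doxycycline, both below. Such groups without overlap are common: 25.8% of all genes were so in the higher direction in 231BrM. In the lower direction 27.2% were so in the SKBrM3-labelled arrays. The share with both at once was not counted. The difference of the doxycycline effects was 0.44 (95% interval 0.09 to 0.79) and did not pass (limma adjusted p = 0.475 over all probe sets). The higher 231BrM doxycycline value is that of the array with raised 3' signal, and its part in the difference was not tested. The other SPRED2 probe sets gave -0.03 and 0.09. Groups of 2 arrays are too small for a test of single arrays that stand apart.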

How the results depend on the processing

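Of 540 recomputed differences 501 kept direction and side of the threshold, 14 passed newly, 5 lost a call and 20 turned direction, with 0 calls among the turned. ETV1, ETV5 and DUSP5 stayed called between the lines under every alternative run. For the average effect, 0 members were called with all arrays, 1 with the mean of all probe sets or with array weights, and 2 with a trended and robust variance. Leaving out 1 array gave 0 to 2 called members in 231BrM, 0 to 1 in the SKBrM3-labelled arrays, 0 to 4 for the average (ETV1, DUSP4, SPRY2 and ETV4 without 231BrM doxycycline replicate 2) and 3 to 5 between the lines. Of the member probe sets it gave 0 to 7 and 0 to 4 in the 2 lines. In the SKBrM3-labelled arrays array weights called 2 member probe sets, a trended and robust variance 1 and that line's arrays alone 5. With the mean of all probe sets, SPRED1 turned to 0.0843 and ETV4 to -0.0117 in 231BrM, and SPRED2 to -0.0745 in the SKBrM3-labelled arrays. Leaving out 1 array moved the 231BrM difference from -0.0617 to 0.0355 for DUSP5, from -0.0951 to 0.0179 for DUSP6, from -0.315 to 0.259 for SPRY4, from -0.0786 to 0.0393 for SPRED1, from -0.0690 to 0.124 for SPRED2, from -0.155 to 0.283 for ETV4 and from -0.206 to 0.0861 for ETV5. The same moved the SKBrM3-labelled difference from -0.0641 to 0.0354 for DUSP5 and from -0.148 to 0.0311 for SPRY4, and the line difference of SPRED2 from -0.180 to 0.0125. Calls over all genes ran from 1 (that line's arrays alone) to 1650 (without 231BrM doxycycline replicate 2) in 231BrM, where 21 were called with all arrays, and from 52 to 1631 around 446 in the SKBrM3-labelled arrays. They ran from 98 to 2887 around 395 for the average, from 0 to 473 around 3 for the difference and from 3323 to 6636 around 5167 between the lines. The cause was not tested.

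The deviations of same-numbered arrays correlated at 0.24 between the 231BrM groups, where 9 of 10 members read higher on replicate 1 in both, and from -0.11 to 0.06 between the other 5 pairs of groups. The numbers were not taken as pairs. With the replicate block 1 member, ETV1, was called for the average (-0.39, limma adjusted p = 0.0447), and calls over all genes were 16, 389 and 5113 in 231BrM, the SKBrM3-labelled arrays and between the lines.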
